A study of Homo sapiens with 9 samples.

Results

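The genes described here were chosen by name, with earlier results of these data known, because their products limit or carry out growth factor signaling through ERK. They are the Sprouty genes SPRY1, SPRY2 and SPRY4, the Sprouty-related genes SPRED1, SPRED2 and SPRED3, the PEA3 transcription factor genes ETV1, ETV4 and ETV5, and ELK1. These are 10 of the 62710 genes in the deposited table, and all 10 were among the 15230 genes tested, those that averaged 10 or more normalized counts over the 9 libraries. The cells were A375R, a line of human A375 melanoma cells that is resistant to PLX4032, an inhibitor related to vemurafenib, and that the study kept in medium with that inhibitor. Whether PLX4032 was present during the treatments for RNA sequencing is not given in the sources used here. The cells received the vehicle DMSO, 10 µM VHL-r or 10 µM R4VPL3-1, each of the compounds for 2 h, with 3 libraries from 3 biological repeats per treatment. R4VPL3-1 is a PROTAC-like molecule that joins a moiety binding the ubiquitin ligase RNF4, a linker and the VHL-binding moiety, and VHL-r is the VHL-binding moiety alone. The control libraries carry the label WT without a dose, and the series' design gives DMSO as the control. Column names of control replicates 2 and 3 also give 2 h, and that of the other gives no time. All 3 groups are a single cell line, so the repeats differ in culture and not in genotype.

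ERK is the last kinase of the RAS, RAF and MEK cascade. Sprouty and SPRED proteins are inhibitors of this cascade that are themselves transcribed when ERK is active, so their mRNA is commonly read as an output of the pathway as well as a brake on it. Sprouty proteins act near receptor tyrosine kinases and RAS, and SPRED proteins bring the RAS GTPase-activating protein neurofibromin to the membrane. ETV1, ETV4 and ETV5 form the PEA3 group of ETS transcription factors, which raise transcription downstream of ERK. Their genes are held down by the repressor Capicua, encoded by CIC, which ERK relieves. ELK1 is an ETS factor that ERK activates by phosphorylation on promoters bound by SRF, so its activity can change without a change of its mRNA. In melanoma with mutant BRAF, several of the Sprouty and PEA3 transcripts are widely used as readouts of MAPK signaling.

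The promoters of SPRY2 and SPRY4 are shown because these genes had the largest falls among the 10 with R4VPL3-1. Each stretch runs from 250 bases before to 50 bases after the RefSeq start of transcription on GRCh38.p14, 5′ to 3′ on the gene's strand. Capitals mark matches to the ETS core CCGGAA and to TGACG, a short core of the cAMP response element, both searched on both strands.
SPRY2, chr13:80341077-80341376, minus strand: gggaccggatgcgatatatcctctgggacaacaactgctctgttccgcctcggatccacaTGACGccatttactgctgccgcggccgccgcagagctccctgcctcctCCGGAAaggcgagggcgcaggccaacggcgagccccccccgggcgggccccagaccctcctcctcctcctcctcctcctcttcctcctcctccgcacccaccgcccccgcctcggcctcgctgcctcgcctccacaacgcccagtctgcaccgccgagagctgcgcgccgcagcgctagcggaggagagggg
SPRY4, chr5:142324198-142324497, minus strand: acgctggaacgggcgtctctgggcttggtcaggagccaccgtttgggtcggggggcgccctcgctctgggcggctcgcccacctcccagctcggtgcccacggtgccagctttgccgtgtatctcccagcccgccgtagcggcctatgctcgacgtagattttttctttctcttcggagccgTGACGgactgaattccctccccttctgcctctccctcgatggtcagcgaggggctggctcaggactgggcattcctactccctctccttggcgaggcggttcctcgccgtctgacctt
The SPRY4 window surrounds a start that lies 774 bases from the start of the Ensembl canonical transcript, whereas that of SPRY2 lies at the canonical start. RefSeq promoters were matched for 8 of the 10 genes, all but ETV4 and ETV5. The core CCGGAA was present in 17.2% of the 35116 promoters in the table and in 1 of the 8, SPRY2, from base -142. The short core TGACG was present in 24.6% of all promoters and in 4 of the 8, with matches beginning at -190 in SPRY2, -68 in SPRY4, 30 in SPRED2 and -213 in ELK1. No match was found in any of the 8 windows for the Capicua octamers TCAATGAA, TCAATGGA, TGAATGAA and TGAATGGA (3.77% of all promoters hold at least 1 of them), the AP-1 site TGANTCA (7.71%), the whole response element TGACGTCA (1.85%), the CArG box bound by SRF (1.29%) or the TATA box TATAAA (11.5%). The whole response element contains TGACG. GC content was 71.0% in the SPRY2 window and 65.0% in that of SPRY4, against a median of 58.67% over all promoters.

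The recovered totals of the 9 libraries lay between 26435568 and 32085626 reads, so counting error is small for the abundant genes and larger for SPRY1 and SPRED3, which had between 58.0 and 204 normalized counts per library. Of 11 melanocytic lineage genes, 7 had a mean of at least 10, SOX10, DCT, MITF, S100B, PAX3, PMEL and GPM6B, while MLANA and SOX2 were at 0 in all libraries and TYR was close to 0. All 7 markers of undifferentiated or inhibitor-resistant melanoma had a mean of at least 10, TNC and AXL among them. The summed epithelial list stayed between 645 and 819 normalized counts, most of them from KRT8 and KRT14, and the haematopoietic and endothelial lists reached at most 28.8 and 13.3. The summed melanocytic level lay between 21240 and 23070 normalized counts with DMSO, 12400 and 15300 with VHL-r and 10990 and 13200 with R4VPL3-1, so it was lower with both compounds, as SPRY2 and SPRY4 were, and the ranges of the compounds overlapped. Most of these counts came from 1 gene, SOX10, with means of 17550.0, 10200.0 and 8405, and MITF was at 1722, 1047 and 1011. Other members were closer between the groups: DCT was at 1347, 1261 and 1223, S100B at 730.3, 677 and 642, PMEL at 29.9, 32.5 and 29.0, and PAX3 lay the other way, at 505, 594 and 629. The part of these genes in the results was not tested. The summed undifferentiated level lay between 37160 and 40890 with DMSO, 34440 and 38410 with VHL-r and 38100 and 41370 with R4VPL3-1, so its ranges overlapped.

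The first question was whether the VHL-binding moiety alone changed these transcripts. Of the 10 genes, 6 were lower and 1 was higher with VHL-r than with DMSO in the limma fit (threshold of 0.05 on the p adjusted over all tested genes). The background was 19.8% of the 15230 genes called in this comparison, 9.51% lower and 10.3% higher. Because the 10 genes were chosen with earlier results known, setting them beside such shares is a description and not a test. The 6 lower genes were the SPRY and SPRED genes named above, and the higher gene was ETV5. The median log2 fold change of the 10 genes was -0.27, against -0.0045 over all tested genes. Fold changes are differences of log2(normalized count + 1) and understate the change of low genes.

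The second question was the effect of the whole molecule against vehicle. With R4VPL3-1, 7 of the 10 genes were lower and 1 higher than with DMSO, where 24.9% of all tested genes were called, 11.8% lower and 13.1% higher. The 7 were SPRY1, SPRY2, SPRY4, SPRED1, SPRED2, ETV1 and ETV4, and the higher gene was again ETV5. The median log2 fold change was -0.33 over the 10 genes and -0.0063 over all tested genes. Both comparisons use the same 3 DMSO libraries and are therefore not independent of each other.

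The comparison of the compounds at the matched dose and time asked what the RNF4-binding moiety and linker add to the VHL-binding moiety. SPRY2 and SPRY4 were lower with R4VPL3-1 than with VHL-r, and none of the other 8 genes passed the test by limma, edgeR or DESeq2. At an unadjusted p of 0.05 by limma, 1 gene was higher (SPRY1) and 3 were lower (SPRED1 in addition). At that unadjusted threshold, 1508 of the 15230 tested genes passed in either direction. In this comparison 1.87% of all tested genes were called, 0.729% lower and 1.14% higher. The median log2 fold change of the 10 genes was -0.052, close to the -0.0056 of all tested genes.

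SPRY2 (ENSG00000136158) lies on chromosome 13 of GRCh38 from 80335976 to 80341126 on the minus strand, and its protein is encoded by 1 exon. It had 7272, 7324 and 7214 normalized counts in DMSO replicates 1, 2 and 3. With VHL-r the counts were 4182, 4094 and 4218. With R4VPL3-1 they were 2154, 2609.6 and 2600.4. Each group was separate from the others, and R4VPL3-1 replicate 1 was the lowest of the 9 libraries. Against DMSO, SPRY2 fell 1.75-fold with VHL-r (log2 fold change -0.80, 95% interval -0.92 to -0.68, limma adjusted p = 2.38e-09) and 2.97-fold with R4VPL3-1 (-1.57, -1.69 to -1.45, limma adjusted p = 4.72e-14). The fall from VHL-r to R4VPL3-1 was itself 1.70-fold (-0.77, -0.89 to -0.65, limma adjusted p = 2.04e-08). Ordered from the lowest fold change, SPRY2 stood at place 305 of 15230 with VHL-r against DMSO, at 47 with R4VPL3-1 against DMSO and at 56 with R4VPL3-1 against VHL-r. In these bulk samples, fewer cells with the transcript and less of it per cell cannot be told apart, for SPRY2 or for any other gene named here.

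SPRY4 (ENSG00000187678), another Sprouty gene with a single coding exon, lies on chromosome 5 from 142310427 to 142326455 on the minus strand. The DMSO libraries had 2504, 2345.5 and 2579.8 normalized counts. Those with VHL-r had 1531, 1589 and 1636, and those with R4VPL3-1 had 979, 1091 and 1118. The 3 groups were separate in the same order as for SPRY2. The falls against DMSO were 1.56-fold with VHL-r (log2 fold change -0.64, limma adjusted p = 8.11e-08) and 2.33-fold with R4VPL3-1 (-1.22, limma adjusted p = 2.34e-12). R4VPL3-1 was 1.49-fold below VHL-r (-0.58, 95% interval -0.70 to -0.46, limma adjusted p = 1.95e-06). An antisense gene, SPRY4-AS1, is transcribed from the opposite strand next to it, and the study's counting used strand. Its means were 66.0 ± 8.06 normalized counts with DMSO, 55.2 ± 11.2 with VHL-r and 47.4 ± 12.9 with R4VPL3-1 (SD, n = 3 each), the groups overlapped in every comparison, and no comparison passed the test (lowest limma adjusted p = 0.0984, with R4VPL3-1 against DMSO).

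SPRY1 (ENSG00000164056), on chromosome 4 from 123396795 to 123403760 on the plus strand, is a Sprouty gene with a low level in these cells and did not follow the order of SPRY2 and SPRY4. It had 129, 143 and 131 normalized counts with DMSO. With VHL-r it had 58.0, 64.1 and 67.6, and with R4VPL3-1 93.4, 100.5 and 66.4. All treated libraries were below all DMSO libraries, but R4VPL3-1 replicate 3 lay among the VHL-r libraries and replicates 1 and 2 lay above them. SPRY1 fell 2.11-fold with VHL-r (log2 fold change -1.07, 95% interval -1.41 to -0.73, limma adjusted p = 5.51e-05) and 1.56-fold with R4VPL3-1 (-0.64, -0.98 to -0.30, limma adjusted p = 0.00561). The difference of R4VPL3-1 from VHL-r was 0.43 (0.09 to 0.77) and did not pass the test (limma adjusted p = 0.298). Without R4VPL3-1 replicate 3 it was 0.61 and passed (limma adjusted p = 0.0455), so this library decides the call.

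SPRED2 (ENSG00000198369) is on chromosome 2 from 65310851 to 65432637, minus strand, with 6 coding exons. Its normalized counts were 2237, 2115 and 2014 with DMSO, 1698, 1650.3 and 1622 with VHL-r, and 1612, 1629 and 1546 with R4VPL3-1. Both treated groups were below the DMSO group and overlapped with each other. The falls were 1.28-fold with VHL-r (log2 fold change -0.36, limma adjusted p = 4e-05) and 1.33-fold with R4VPL3-1 (-0.41, limma adjusted p = 4.66e-06). Between the compounds the difference was -0.055 with a 95% interval from -0.16 to 0.05 (limma adjusted p = 0.863).

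SPRED1 (ENSG00000166068), whose loss of function causes Legius syndrome, lies on chromosome 15 from 38252836 to 38357249 on the plus strand. It had 3203, 3189.6 and 3116 normalized counts with DMSO, 2985, 2754 and 2608 with VHL-r and 2367, 2559.9 and 2670.03 with R4VPL3-1. The treated libraries were all below the DMSO libraries, at 87.8% and 79.9% of the DMSO mean with VHL-r and R4VPL3-1. The fall was 1.14-fold with VHL-r (log2 fold change -0.19, limma adjusted p = 0.0172) and 1.25-fold with R4VPL3-1 (-0.33, limma adjusted p = 0.000132). The call with VHL-r was lost without VHL-r replicate 2 or 3 or without DMSO replicate 1 or 2 (limma adjusted p from 0.0537 to 0.0882). R4VPL3-1 against VHL-r gave -0.14 (95% interval -0.25 to -0.02, limma adjusted p = 0.363), and the groups overlapped.

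SPRED3 (ENSG00000188766), on chromosome 19 from 38388421 to 38399587 on the plus strand, had the lowest level of the SPRED genes. Its normalized counts were 204, 189 and 203 with DMSO, 126, 128 and 154 with VHL-r and 177, 154 and 142 with R4VPL3-1. As for SPRY1, the libraries with VHL-r reached the lowest values. It fell 1.46-fold with VHL-r (log2 fold change -0.55, 95% interval -0.81 to -0.29, limma adjusted p = 0.00266). With R4VPL3-1 the fold change was -0.33 (-0.59 to -0.08) and missed the threshold (limma adjusted p = 0.0531), although all 3 libraries were below the DMSO libraries. Without R4VPL3-1 replicate 1 it passed (limma adjusted p = 0.0323). The compounds differed by 0.22 (-0.04 to 0.47, limma adjusted p = 0.635).

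ETV5 (ENSG00000244405) on chromosome 3, from 186046314 to 186110318 on the minus strand, was the only one of the 10 genes called higher in any comparison of all 9 libraries. It had 2162, 2098 and 2327 normalized counts with DMSO, 2956, 2937 and 3089 with VHL-r and 2904, 2782 and 2994 with R4VPL3-1. Every treated library was above every DMSO library. It rose to 136% of the DMSO mean with VHL-r (log2 fold change 0.45, 95% interval 0.34 to 0.55, limma adjusted p = 1.36e-06) and to 132% with R4VPL3-1 (0.40, 0.29 to 0.50, limma adjusted p = 4.15e-06). The compounds differed by -0.050 (-0.16 to 0.06, limma adjusted p = 0.874), and their libraries overlapped. Of its exon bases, 2.84% are shared with exons of DGKG on the same strand, and how the study counted reads there is not given. ETV5-AS1, on the other strand, had a mean of 0.572 normalized counts and was not tested.

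ETV4 (ENSG00000175832) lies on chromosome 17 from 43527844 to 43579620 on the minus strand. It had 5044, 4804 and 4792 normalized counts with DMSO, 4339, 4606 and 4811 with VHL-r and 4395, 4509.9 and 4378 with R4VPL3-1. The R4VPL3-1 libraries were below the DMSO libraries, and the VHL-r group overlapped with both. Only R4VPL3-1 against DMSO passed the test, with a 1.10-fold fall (log2 fold change -0.14, limma adjusted p = 0.029). The call was lost without R4VPL3-1 replicate 1 or 3 or DMSO replicate 1 or 2 (limma adjusted p from 0.0564 to 0.124) and with no filter on low genes (0.0594). With VHL-r the log2 fold change was -0.091 (95% interval -0.19 to 0.0049, limma adjusted p = 0.191), and between the compounds it was -0.049 (-0.15 to 0.05, limma adjusted p = 0.854).

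ETV1 (ENSG00000006468), on chromosome 7 from 13891229 to 13991425 on the minus strand, has been described as an oncogene in melanoma. Its normalized counts were 1387, 1489.6 and 1518 with DMSO, 1332, 1300.5 and 1391 with VHL-r and 1233, 1199 and 1395 with R4VPL3-1. Each treated group overlapped with the DMSO group, through VHL-r replicate 3 and R4VPL3-1 replicate 3. R4VPL3-1 against DMSO passed the test with a 1.15-fold fall (log2 fold change -0.20, limma adjusted p = 0.0212), a call lost without R4VPL3-1 replicate 1 or 2 or DMSO replicate 2 or 3 (limma adjusted p from 0.0782 to 0.114). With VHL-r it was -0.13 (95% interval -0.26 to 0.0034, limma adjusted p = 0.178), and between the compounds -0.075 (-0.21 to 0.06, limma adjusted p = 0.819).

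ELK1 (ENSG00000126767), on chromosome X from 47635521 to 47650604 on the minus strand, passed no test. Its normalized counts were 3279.9, 3237 and 3163 with DMSO, 3340.4, 3435 and 3430.1 with VHL-r and 3319, 3519.95 and 3129 with R4VPL3-1. The VHL-r libraries were above the DMSO libraries, and the R4VPL3-1 libraries spanned both groups. The log2 fold changes were 0.076 with VHL-r (95% interval -0.024 to 0.18, limma adjusted p = 0.31), 0.041 with R4VPL3-1 (-0.059 to 0.14, limma adjusted p = 0.593) and -0.035 between the compounds (-0.14 to 0.064, limma adjusted p = 0.913). Both values with R4VPL3-1 changed sign when 1 of its libraries was left out.

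**Figure D1:**
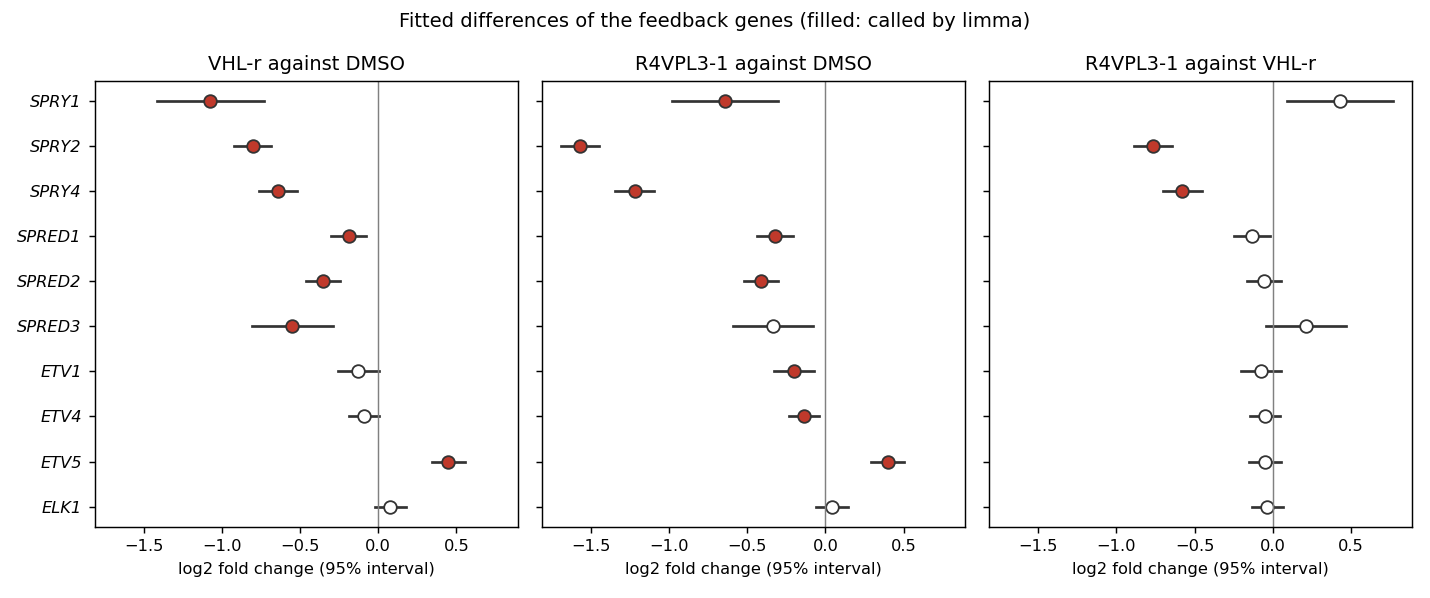
Log2 fold changes (x axes) of the 10 genes in the 3 comparisons, with 95% intervals from the limma fit of all 9 libraries and filled points for genes with an adjusted p of at most 0.05. SPRY2 and SPRY4 are filled below 0 in all 3 panels, at -0.77 and -0.58 between the compounds, whereas ETV5 is filled above 0 against DMSO only.

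The spread between repeats was small for most of the genes. The median SD on the log2 scale over the 10 genes was 0.066 with DMSO, 0.048 with VHL-r and 0.095 with R4VPL3-1. SPRY1 with R4VPL3-1 had the largest, 0.32, and SPRY2 with DMSO the smallest, 0.011. In all, the groups did not overlap for 6 genes lower and 2 higher with VHL-r than with DMSO, where 34.3% of all tested genes were separate, 17.2% lower and 17.1% higher. For R4VPL3-1 against DMSO 7 genes were separate lower and 1 higher, against 38.0% of all tested genes, 18.9% lower and 19.1% higher. Between the compounds 2 genes were separate, both lower, and the other 8 overlapped, against 14.1% of all tested genes separate, 7.11% lower and 6.99% higher.

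Levels were compared between genes only after division by the length of each gene's merged exons, as normalized counts per kb. With DMSO, SPRY2 had the highest level at 2263, followed by ETV4 at 1388 and ELK1 at 949.5. SPRED1, SPRED2, ETV5 and SPRY4 came next, at 409, 386, 380.3 and 378, and neighbours in this stretch overlapped. ETV1 followed at 153, and SPRED3 and SPRY1 shared the last place at 33.9 with overlapping libraries. With VHL-r, ETV4 at 1305 and SPRY2 at 1296 overlapped at the head. With R4VPL3-1, SPRY2 was at 764, below ETV4 at 1260.0 and ELK1 at 978 without overlap. SPRY4 was at 162 with R4VPL3-1, between SPRED2 at 289.8 and ETV1 at 133, without overlap with either.

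Summed over each family, the Sprouty genes had 2674 ± 3.14 normalized counts per kb with DMSO, 1554 ± 23.6 with VHL-r and 948 ± 90.8 with R4VPL3-1 (SD, n = 3 each), which is 58.1% and 35.5% of the DMSO mean. SPRY2 supplied 84.6%, 83.4% and 80.6% of these sums, so the sum mostly describes this gene. The SPRED sum was 828 ± 25.9, 683 ± 29.4 and 644 ± 13.1, or 82.5% and 77.7% of the DMSO mean, and with DMSO SPRED1 made 49.4% of it and SPRED2 46.5%. The PEA3 sum was 1921 ± 34.5, 1963 ± 82.0 and 1894 ± 14.2, or 102% and 98.6% of the DMSO mean, and the groups overlapped. Within that sum ETV5 rose from 19.8% with DMSO to 26.4% with VHL-r and 26.5% with R4VPL3-1, while ETV4 went from 72.3% to 66.5% and 66.5%. These sums and shares are descriptions and were not tested.

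**Figure D2:**
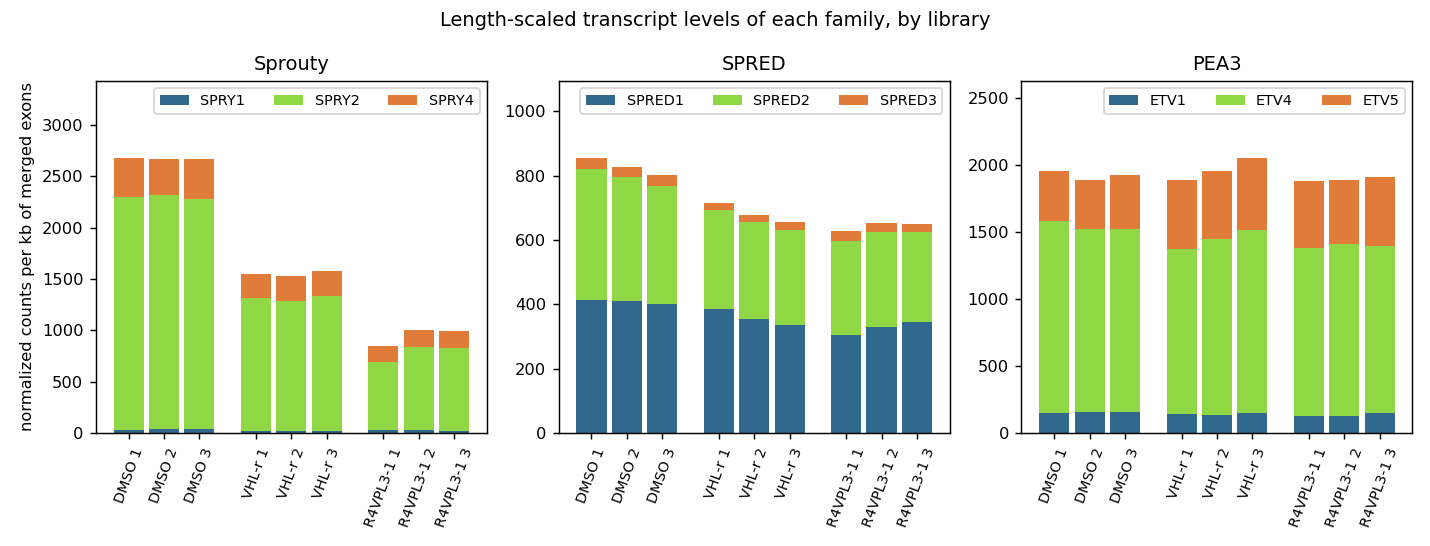
Stacked normalized counts per kb of merged exons (y axes, each from 0) of the Sprouty, SPRED and PEA3 genes in each of the 9 libraries. The Sprouty columns go from a mean of 2674 with DMSO to 948 with R4VPL3-1, and the PEA3 columns stay between 1882 and 2049.

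Other genes of the pathway were taken as fixed lists. Among 20 other genes that are transcribed in response to ERK, all were tested. By limma, 10 were lower and 4 higher with VHL-r than with DMSO, 11 lower and 5 higher with R4VPL3-1 than with DMSO, and 7 lower and 2 higher with R4VPL3-1 than with VHL-r. The counts by edgeR were the same, while DESeq2 called 9 lower with VHL-r and 4 higher with R4VPL3-1 than with DMSO. The shares of all tested genes called lower and higher were 9.51% and 10.3%, 11.8% and 13.1%, and 0.729% and 1.14% in these comparisons. The medians of the log2 fold changes of the 20 genes were -0.15, -0.42 and -0.19. PHLDA1, a nuclear protein whose gene responds quickly to growth factors, had the same order of groups as SPRY2 and SPRY4, at 11230.0 ± 225 normalized counts with DMSO, 5171 ± 55.2 with VHL-r and 3470.0 ± 199 with R4VPL3-1 (SD, n = 3 each). Its log2 fold change between the compounds was -0.58 (limma adjusted p = 3.41e-08). LIF, a cytokine of the interleukin 6 family, had 5051, 3526 and 2958 normalized counts with DMSO, 1017, 1117 and 767 with VHL-r and 476, 638 and 525 with R4VPL3-1. Its 3 groups were separate and the difference between the compounds was -0.82 (limma adjusted p = 0.00213). EGR3, an immediate early transcription factor, was different: with VHL-r it was at 830.0 ± 21.8 against 857 ± 84.9 with DMSO (log2 fold change -0.041, limma adjusted p = 0.786), and with R4VPL3-1 it was at 527 ± 46.7 (log2 fold change from VHL-r -0.66, limma adjusted p = 1.87e-05). DUSP6, the phosphatase of ERK, and IER3 had smaller changes with VHL-r, -0.41 and -0.55, than with R4VPL3-1, -1.90 and -1.99, both against DMSO, and differed by -1.49 and -1.43 between the compounds (limma adjusted p = 5.66e-10 and 5.06e-11). In the opposite direction, FOS, an immediate early gene and target of ELK1 and SRF, had 158 ± 34.4 normalized counts with DMSO, 489.5 ± 76.0 with VHL-r and 1063 ± 240.3 with R4VPL3-1, and its difference between the compounds was 1.10 (limma adjusted p = 0.000132).

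**Figure D3:**
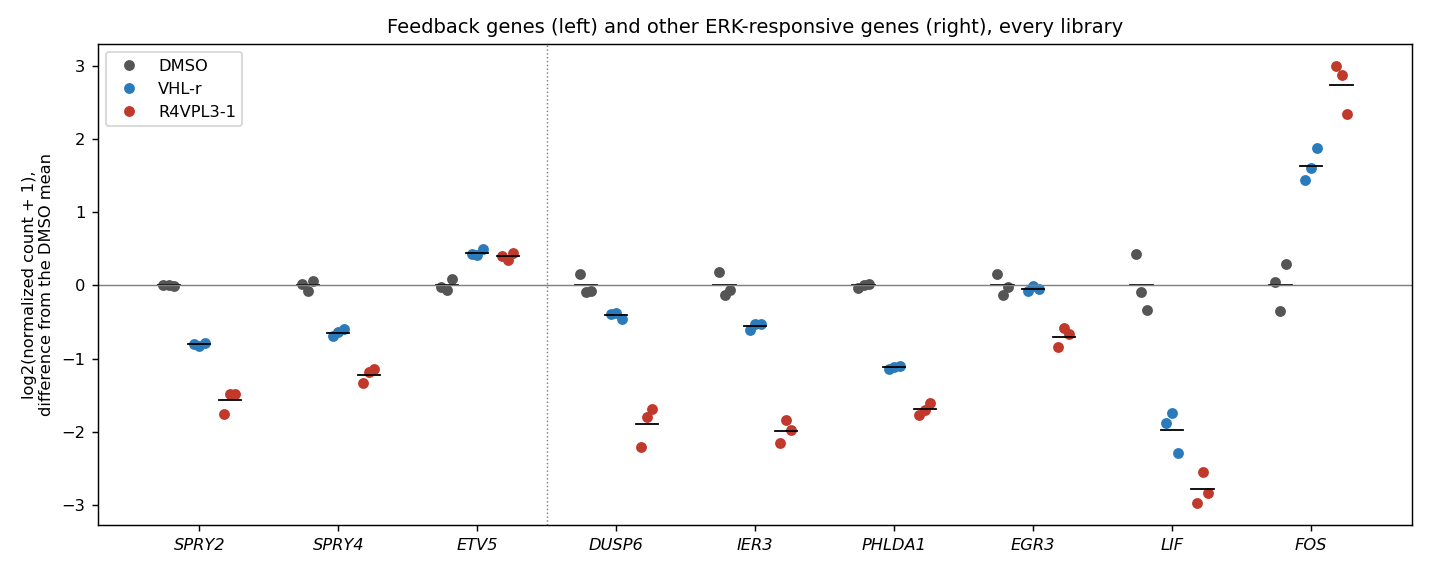
Difference of log2(normalized count + 1) from the DMSO mean (y axis) in every library for SPRY2, SPRY4 and ETV5, left of the dotted line, and for the named genes of the ERK list, right of it; short lines are group means. SPRY2, SPRY4, DUSP6, IER3, PHLDA1, LIF and EGR3 step down from VHL-r to R4VPL3-1, and FOS steps up. EGR3 lies below all DMSO libraries with R4VPL3-1 only.

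A further list held receptors, adaptors and kinases on which Sprouty and SPRED proteins act. All 26 were tested, and by limma 3 were lower and 2 higher with VHL-r, 4 lower and 4 higher with R4VPL3-1, both against DMSO. Against DMSO, DESeq2 called 2 lower with VHL-r and edgeR 5 higher with R4VPL3-1. None was called between the compounds by limma, edgeR or DESeq2, where 2 were higher and 2 lower at an unadjusted p of 0.05 by limma. Over all tested genes 19.8%, 24.9% and 1.87% were called in these comparisons, so the called counts of this list are near the background. At the unadjusted p, 1508 of the 15230 tested genes passed between the compounds. The medians of the log2 fold changes of the 26 genes were -0.0019, -0.035 and -0.036. MET, the receptor of hepatocyte growth factor, was lower with both compounds (-0.25 and -0.31, limma adjusted p = 0.00144 and 0.000115), as was the receptor gene ERBB3 (-0.24 and -0.32, limma adjusted p = 0.0319 and 0.00415). NRAS was lower with R4VPL3-1 (-0.20, limma adjusted p = 0.00566), and EGFR (0.31, limma adjusted p = 0.0145) and the adaptor gene FRS2 (0.24, limma adjusted p = 0.00605) were higher with it than with DMSO. For these 3 the log2 fold changes with VHL-r were -0.074, 0.11 and 0.13 and did not pass. FGFR1 and CBL had higher means with both compounds than with DMSO. FGFR1 was at 782, 1105 and 1099 normalized counts with DMSO, VHL-r and R4VPL3-1, and CBL at 1875, 2170 and 2199.

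Among 10 regulators of the PEA3 factors and partners of ELK1, 9 were tested, since DET1 is listed at 0. ELK3, an ETS factor of the ELK1 subfamily that can repress, fell in steps from 3371 ± 51.5 normalized counts with DMSO to 2657 ± 97.9 with VHL-r and 2310.0 ± 46.2 with R4VPL3-1 (SD, n = 3 each), and the step between the compounds passed the test (log2 fold change -0.20, limma adjusted p = 0.0204). SRF, the partner of ELK1 on DNA, was higher with VHL-r than with DMSO (0.20, limma adjusted p = 0.0117) but not with R4VPL3-1 (0.020, limma adjusted p = 0.838), and the compounds differed by -0.18 (limma adjusted p = 0.123). No other gene of this list, CIC included, was called in any comparison. Of 18 other ETS factors, 11 were tested, and 5, 6 and 1 were lower by limma with VHL-r against DMSO, R4VPL3-1 against DMSO and R4VPL3-1 against VHL-r (DESeq2 called 2 in the last), with none higher by limma, edgeR or DESeq2 (at an unadjusted p of 0.05 by limma, 1 was higher with VHL-r against DMSO and 0 in the other comparisons). Over all tested genes 9.51%, 11.8% and 0.729% were called lower. At the unadjusted p, 4609, 5410 and 1508 of the 15230 tested genes passed in either direction in these comparisons. The medians of the log2 fold changes of the 11 genes were -0.11, -0.28 and -0.11. ETS1, the founding member of the family, was lower with VHL-r (-0.35, limma adjusted p = 0.000187) and R4VPL3-1 (-0.39, limma adjusted p = 4.41e-05), and ELF1, ELF2, ELF4 and EHF were also lower with both. ETS2 was the gene called by limma between the compounds (-0.25, limma adjusted p = 0.0185), at 1285 ± 16.6 normalized counts with DMSO, 1194 ± 13.5 with VHL-r and 1007 ± 48.4 with R4VPL3-1.

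For the 4 genes whose group means spanned at least 0.5 on the log2 scale, the tested genes with the most similar pattern were found by the root mean square difference of their centred log2 values over the 9 libraries. Nearest to SPRY2 was ENC1 at 0.088, with 3525, 1865 and 1229 normalized counts on average in DMSO, VHL-r and R4VPL3-1, followed by FOXC2 at 0.118 and MANSC1 at 0.135. Nearest to SPRY4 were IRF2BPL at 0.077, with 2352, 1527 and 1085, then BCL3 at 0.109 and DUSP4, another ERK phosphatase gene, at 0.122. For SPRY1 they were MBNL1-AS1 at 0.134, ZNF48 at 0.161 and LINC01424 at 0.165, and for SPRED3 they were MSC at 0.048, TICAM1 at 0.071 and RNF207 at 0.078. ENC1, FOXC2, MANSC1, IRF2BPL, BCL3 and DUSP4 were lower with R4VPL3-1 than with VHL-r, and the 6 genes nearest to SPRY1 and SPRED3 were not called between the compounds. These likenesses are descriptions chosen from the same values and carry no test.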

How the data were processed

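Poly(A) RNA of A375R cells was sequenced as stranded single reads of 100 bases. Per the study's methods, the authors aligned the reads to GRCh38 (Ensembl 109) with STAR 2.5.3a and counted them per gene with htseq-count 2.0.2 in reverse mode, which sets the strand. How reads lying on exons of 2 genes of the same strand were counted is not given. The authors deposited a normalized signal, the counts divided by DESeq2 1.36.0 size factors (0.9341 to 1.1012), for 62710 genes, of which 30304 were above 0 in any library. No value column was left unused. Dividing by what 1 read is worth gave whole reads (within 0.1) for 100% of values above 0, with totals of 26435568 to 32085626 per library. Pairs of repeats differed by more than sampling noise.

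Log2(normalized count + 1) was tested with limma 3.58.1 (trend, R 4.3.3) over genes with a mean of at least 10, with all 9 libraries in a single-factor model; genes with a Benjamini-Hochberg adjusted p up to 0.05 over all tested genes were called. The procedure was tested on simulated data. An exact permutation test of 3 against 3 libraries cannot give a p below 0.1. The alternatives were a pseudocount of 0.1 or 5, a minimum mean of 50 or no minimum, TMM and upper quartile scaling, limma's robust option, a replicate block, only the 6 libraries compared, the recovered reads in edgeR 4.0.16 and in DESeq2 1.42.0, and each replicate left out. Exons came from GENCODE 44, which matched 62639 genes by identifier, and promoters from RefSeq.

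The 10 genes and all lists were chosen with earlier results of these data known. Other genes were named by rule: up to 6 genes of a list called in any comparison, by the size of their change between the compounds; transcripts named after one of the 10 genes; and the 3 nearest genes. A gene that this rule names is not reported here. SPRY3 was counted within its list only. Marker lists covered melanocytic, undifferentiated melanoma, epithelial, haematopoietic and endothelial cells.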

Additional observations from a re-analysis of the deposited data

How the results depend on the processing

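Each comparison was recomputed under 17 alternatives. The calls of SPRY2, SPRY4, SPRED2 and ETV5 and their directions held in all of them, with SPRY2 between -0.81 and -0.68 and SPRY4 between -0.62 and -0.52 on the log2 scale for R4VPL3-1 against VHL-r. Of the recomputed values of the 10 genes, 491 kept direction and side of the threshold, 13 lost a call, 4 gained one and 2 changed sign; the cause was not tested. The sign changed for ELK1, to -0.0014 against DMSO without R4VPL3-1 replicate 2 and to 0.0071 against VHL-r without R4VPL3-1 replicate 3; over fits without 1 replicate its R4VPL3-1 values ranged from -0.0014 to 0.083 against DMSO and from -0.078 to 0.0071 against VHL-r. The count of all genes called between the compounds ranged from 182 to 358 over fits without 1 replicate, 182 being without R4VPL3-1 replicate 1, and the number of the 10 genes called higher from 0 to 1, the 1 being SPRY1 without R4VPL3-1 replicate 3. edgeR called 3034, 3857 and 297 genes and DESeq2 2641, 3357 and 322, against 3016, 3792 and 285 by limma. At the depth of these libraries, SPRY1 and SPRED3 had the widest intervals.

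Replicate numbers are shared by the groups, but the labels tie them to no culture. The column names carry a date that does not differ between replicate numbers (it is incomplete for DMSO replicate 1), and what it marks is not given. Deviations of libraries with the same number correlated at -0.00559 to 0.121 over 9 pairs, and 6 of 9 libraries correlated best with their own number. With a replicate block, 3451, 4241 and 389 genes were called, and SPRED3 passed in R4VPL3-1 against DMSO (limma adjusted p = 0.0464). It changed no other call of the 10 genes.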
